A study of Mus musculus with 13 samples.

Results

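Always-open promoters of expressed genes were taken here as regions that carried an ATAC peak in every library of the series and lay beside the start of a gene with mRNA in the same cells. The cells were E14 cells, a mouse embryonic stem cell line of 129/Ola background grown in serum with leukemia inhibitory factor. Open chromatin was mapped in 8 ATAC libraries. The low-input protocol, which takes ATAC and mRNA from 1 cell lysate, gave 5 of them: from 10000 and 20000 cells in experiment 1, and from 5000, 10000 and 20000 cells in experiment 2. Omni-ATAC, an established ATAC protocol run for comparison, gave 3, from 5000, 10000 and 50000 cells. The low-input lysates also gave 5 mRNA libraries, with the same cell numbers and experiments, and no group by protocol and cell number has more than 2 libraries. No treatment or genotype separates the groups, and all of them are 1 cell line.

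Members were selected on measured values. A region of the authors' unified list had to overlap a peak in all 8 lists, to lie within 1000 bp of the 5′ end of genes on 1 strand only, and to have at least 1 such gene at a mean of 10 CPM (a gene's counts scaled to a common library total) or more. This left 1429 of 18310 regions (7.80%). Of the 4902 regions with a peak in all 8 lists, 1989 lay over 1000 bp from any gene start, 951 lay beside genes under 10 CPM and 533 lay beside starts on both strands. The 1429 members lay beside 1417 genes, 1400 of them at 10 CPM or more, which is 21.6% of the 6485 genes at that level. On the CPM scale the nearest genes outside the rule were Smurf2 (9.98) and Gcc2 (9.99954), and the nearest inside were Ets2 (10.02) and Riox1 (10.1). On the distance scale the outermost members lay 970 bp (Prpf4b) and 971 bp (Pnrc1) from the start, and the nearest regions outside lay 1004 bp (Gsta4) and 1010 bp (Nadk) away.

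A promoter is the stretch of DNA around a gene's start where RNA polymerase II and its general factors assemble. At active promoters the nucleosome just upstream of the start is usually absent, and this gap is where the transposase Tn5, the enzyme of ATAC, can insert. Most promoters of housekeeping genes in mammals lie in CpG islands, stretches rich in unmethylated CG pairs, and lack a TATA box. They are bound instead by factors such as SP1 and the KLF family at GC boxes, NF-Y at CCAAT boxes, ETS proteins, NRF1 and YY1. NF-Y is a trimer with a histone-like pair of subunits and is known to bind close to gene starts.

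Stem cell markers were well expressed. Pou5f1, the gene of the stem cell factor OCT4, had 150.8 to 233.2 CPM over the 5 libraries, and Nanog had 207.2 to 250.7. Of 8 genes listed as fibroblast markers, Fn1, the fibronectin gene, had 179.9 ± 18.8 CPM (SD, n = 5) and Thy1 17.3 ± 13.1 CPM, while Col1a1 was at most 1.89 CPM and Col3a1 and Lum were at 0 in every library. Of the lineage genes, 0 of 10 lineage genes (such as Gata4, Sox17 and T) reached a mean of 10 CPM, the highest in any library being Pax6 at 6.96 CPM. The mRNA libraries held between 13727122 and 20426252 counts each. The peak lists hold intervals without height or score, from 9097 peaks (Omni-ATAC, 5000 cells) to 95457 (Omni-ATAC, 50000 cells), and how many reads stand behind each list is not known. The Omni-ATAC list from 5000 cells stands apart: it holds the fewest peaks, and 744 of 922 promoter regions of expressed genes that miss only 1 list miss this one. Without that list in the rule there would be 2173 members.

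The promoters of 6 members are printed to show how these words are laid out. Among members whose start is exactly the RefSeq start, they hold the most different motifs (4 each) within the printed stretch, taken in order of mRNA level, so they are not typical. In the 300-base windows used for the shares, 515 of 1141 member genes (45.1%) held 2 different motifs. Each sequence is the 200 bases upstream of the RefSeq start in GRCm38.p6, on the gene's own strand and 5′ to 3′, and so ends at the last base before transcription. Capitals mark exact matches, on either strand, to words known to be bound by a factor: the GC box GGGCGG of SP and KLF proteins, the CCAAT box of NF-Y, the ETS word CCGGAAG, and the words of NRF1, YY1, ZBTB33, ZNF143, the E-box, the octamer and the TATA box (sense strand only), which are spelled out with their shares.
Eif4a1: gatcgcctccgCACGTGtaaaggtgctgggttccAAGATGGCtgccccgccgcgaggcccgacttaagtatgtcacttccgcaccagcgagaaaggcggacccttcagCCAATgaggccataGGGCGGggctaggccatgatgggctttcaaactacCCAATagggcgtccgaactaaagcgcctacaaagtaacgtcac
Hsbp1: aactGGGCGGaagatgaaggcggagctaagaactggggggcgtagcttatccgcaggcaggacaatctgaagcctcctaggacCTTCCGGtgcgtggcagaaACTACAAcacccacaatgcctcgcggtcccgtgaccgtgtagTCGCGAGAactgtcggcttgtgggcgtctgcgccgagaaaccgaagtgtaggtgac
Polr2j: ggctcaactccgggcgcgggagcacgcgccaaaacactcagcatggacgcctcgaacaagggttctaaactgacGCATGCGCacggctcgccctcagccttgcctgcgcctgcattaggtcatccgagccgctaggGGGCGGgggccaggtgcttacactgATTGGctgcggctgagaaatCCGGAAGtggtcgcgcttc
Nup50: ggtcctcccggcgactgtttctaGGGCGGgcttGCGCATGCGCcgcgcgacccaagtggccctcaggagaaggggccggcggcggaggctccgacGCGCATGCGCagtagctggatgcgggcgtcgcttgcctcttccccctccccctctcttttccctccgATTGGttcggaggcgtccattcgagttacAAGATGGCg
Cnpy3: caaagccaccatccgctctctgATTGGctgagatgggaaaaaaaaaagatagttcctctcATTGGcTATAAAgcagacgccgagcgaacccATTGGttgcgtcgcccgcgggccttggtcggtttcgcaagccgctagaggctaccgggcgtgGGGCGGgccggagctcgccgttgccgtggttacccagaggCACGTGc
Srf: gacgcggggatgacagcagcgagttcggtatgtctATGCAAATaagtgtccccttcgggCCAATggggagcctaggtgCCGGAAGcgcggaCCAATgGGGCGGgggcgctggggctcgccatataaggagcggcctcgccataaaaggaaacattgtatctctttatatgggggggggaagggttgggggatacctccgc

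Eif4a1 encodes the helicase of translation initiation (chr11:69672424-69672623, minus strand) and Hsbp1 a binding protein of heat shock factor (chr8:119344338-119344537, plus strand). Polr2j encodes a subunit of RNA polymerase II (chr5:136116491-136116690, plus strand) and Nup50 a protein of the nuclear pore (chr15:84923228-84923427, plus strand). Cnpy3 encodes a chaperone of Toll-like receptors (chr17:46752215-46752414, minus strand) and Srf the serum response factor (chr17:46556163-46556362, minus strand). Of the 6, 5 hold a CCAAT box, and Cnpy3 holds 3 of them, with first bases at -178, -140 and -109 from the start. Nup50 has overlapping NRF1 matches, since that word is nearly its own reverse complement. The ATAC region covers all 200 printed bases at Eif4a1, Nup50 and Cnpy3, 169 at Hsbp1, 160 at Polr2j and 129 at Srf. These genes had 577.9 ± 72.9 CPM (Eif4a1, SD, n = 5 libraries), 290.9 ± 66.1 (Hsbp1), 226.7 ± 24.6 (Polr2j), 56.8 ± 9.09 (Nup50), 36.8 ± 2.17 (Cnpy3) and 22.4 ± 5.73 (Srf).

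CCAAT boxes were present in a larger share of member promoters than of promoters of other expressed genes, whose peaks were missing from some lists. RefSeq windows of 300 bases, from 250 before to 50 after the start, were found for 1141 of 1358 member genes off chromosome 18 (84.0%). CCAAT was present on either strand in 650 of them (57.0%, 95% Wilson interval 54.1 to 59.8, counting error only). It was present in 32.5% of 3327 windows of genes at 10 CPM or more with a peak near the start in 1 to 7 lists, and in 37.4% of all 32851 windows of the table. Promoters that were always open beside genes under 10 CPM held it in 55.9% of 750 windows, close to the members. Windows with 2 or more CCAAT words made up 31.8% of the member windows and 10.0% of those with a peak in 1 to 7 lists. Both orientations were about equally common in the members, with the sense word in 36.0% and its reverse complement in 34.4% of windows. The same letters in reversed order, a word added after the data were seen, occurred in 21.1% of member windows and in 22.2% of windows with a peak in 1 to 7 lists. These shares are descriptions, and no test was made on them.

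The gap was also present among windows of like base composition. Median GC content was 62.7% in member windows (quartiles 58 and 67.7) and 61% in windows with a peak in 1 to 7 lists (quartiles 55.3 and 67). When both sets were divided at the quartiles of GC content, CCAAT was present in 62.1% of member windows against 43.7% below 56% GC, in 68.1% against 32.4% from there to 61.3% GC, in 54.6% against 31.0% from there to 67% GC, and in 46.4% against 21.9% above. Among genes at 10 CPM or more, the share with CCAAT was between 26.2% and 30.0% where 2, 4, 5 or 6 lists had a peak near the start. It was 43.5% where 7 had one and 55.6% where all 8 had one. With 0, 1 and 3 lists it was 33.3%, 28.2% and 22.5%, with windows found for under 80% of these genes. Most of the CCAAT matches lay inside the ATAC regions: 88.6% of 1269 matches fell within the member region, which covered 67.8% of the window bases. This was not particular to CCAAT. For the GC box, ETS, NRF1, TGACGTCA, E-box, ZBTB33 and ZNF143 words the share inside ran from 75% (E-box) to 90.2% (ZBTB33). It was 68.8% for the octamer, 67.6% for YY1, 52.6% for TATA and 0% for the 2 matches of the ESRRB word. The centres of the CCAAT matches had a median of -78.5 from the start, with quartiles at -143.5 and -39.5, close to the position where peak coverage was highest. Median mRNA levels were 39.6 CPM for members with a CCAAT box and 37.6 CPM for those without, while the median summed peak width was 240.5 bp with and 206 bp without it. For the GC box these widths were 231.25 and 194 bp, and for the ETS word 201.5 and 233.5 bp.

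The GC box was, like CCAAT, found in the largest shares of windows in both always-open classes, with a smaller gap to the windows with a peak in 1 to 7 lists. GC boxes, bound by SP1 and KLF factors, were in 78.0% of member windows, 74.9% of always-open windows of genes under 10 CPM, 67.6% of windows with a peak in 1 to 7 lists and 35.7% of all windows. The ETS word was in 21.7% of member windows and 25.6% of those with a peak in 1 to 7 lists, but in 13.9% of always-open windows of genes under 10 CPM and 8.86% of all windows. The NRF1 word GCATGCGC was in 6.49% of member windows, against 7.72% of those with a peak in 1 to 7 lists, and the YY1 word AAGATGGC in 5.87% against 6.76%. The E-box CACGTG was in 9.90% against 13%, CREB's palindrome TGACGTCA in 3.07% against 4.21%, and the ZBTB33 word TCTCGCGA in 3.16% against 3.25%. The ZNF143 word ACTACAA was in 5.70% of member windows and 5.87% of always-open windows of genes under 10 CPM, against 4.33%. In all windows of the table these words were in 2.71% (NRF1), 2.75% (YY1), 7.15% (E-box), 1.79% (TGACGTCA), 0.995% (ZBTB33) and 3.24% (ZNF143). The words of 2 stem cell factors were rare: the octamer ATGCAAAT bound by OCT4 was in 1.14% of member windows and the ESRRB word TCAAGGTCA in 0.175%, against 1.74% and 0.423% of all windows. The octamer's share was the same, 1.14%, in windows with a peak in 1 to 7 lists, and 3.33% in always-open windows of genes under 10 CPM.

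TATA boxes were rare in the members and in the classes most like them. TATAAA on the sense strand was in 3.33% of member windows, 2.67% of always-open windows of genes under 10 CPM, 4.27% of windows with a peak in 1 to 7 lists and 8.32% of all windows. At its usual place, 40 to 20 bases before the start, it was found in 13 member genes (1.14%), against 0.8% of always-open windows of genes under 10 CPM, 0.872% of windows with a peak in 1 to 7 lists and 2.81% of all 17879 genes with a window. The 13 include Sod1, the cytosolic superoxide dismutase (3158 CPM), Ppia, the cyclophilin A gene (1720 CPM), H3f3b, a gene of the replacement histone H3.3 (481.9 CPM), and Polr2a, the largest subunit of RNA polymerase II (103 CPM). In the members, 87.0% of windows had a CpG observed over expected ratio above 0.6, a mark of CpG islands, against 83.1% of windows with a peak in 1 to 7 lists and 77.3% of always-open windows of genes under 10 CPM. The median ratio was 0.815 in the members, slightly below the 0.824 of windows with a peak in 1 to 7 lists. It was 0.754 in always-open windows of genes under 10 CPM.

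**Figure D1:**
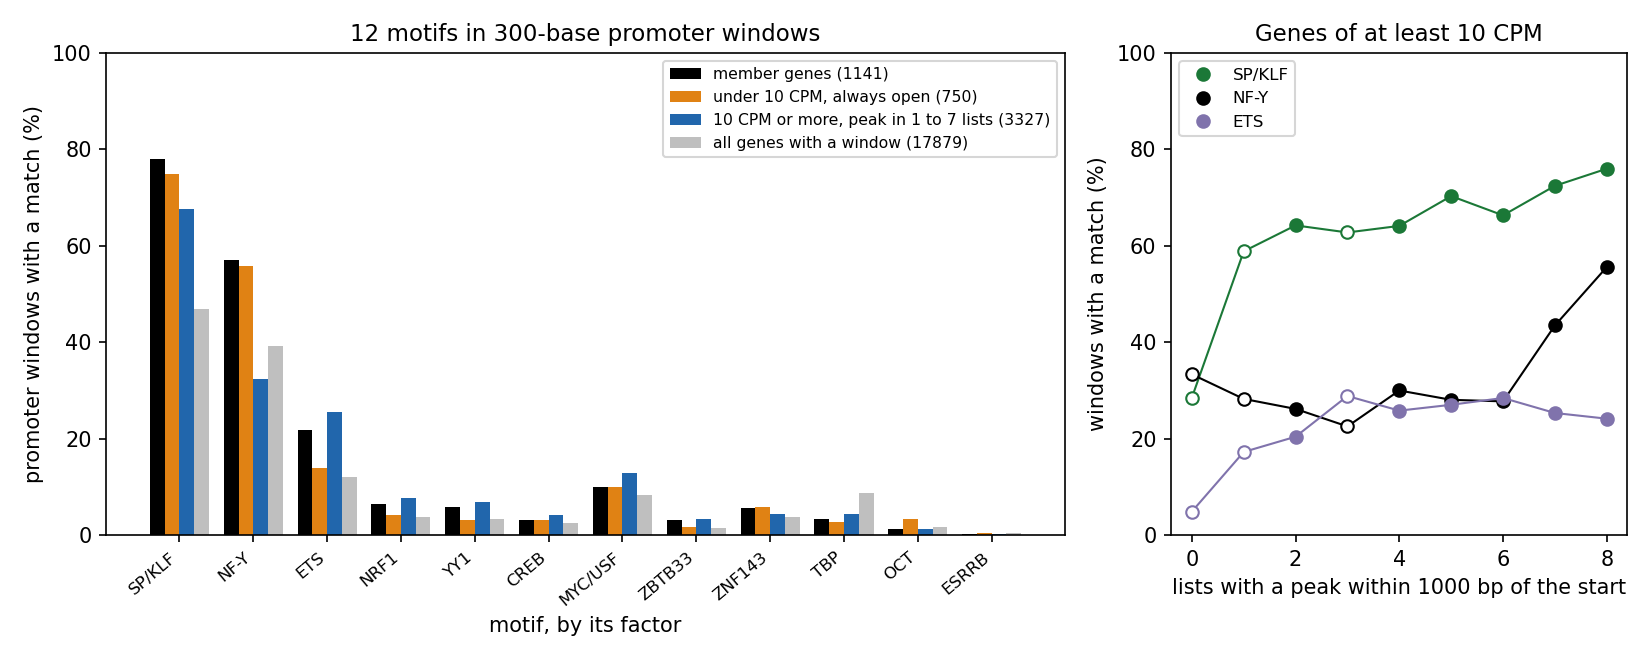
Left: share of 300-base promoter windows (%) with a match to each of 12 motifs, named by factor, in member genes (black), always-open promoters of genes under 10 CPM (orange), genes of 10 CPM or more with a peak in 1 to 7 lists (blue) and all 17879 genes with a matched window (grey). Right: the same share for genes of 10 CPM or more by the number of lists with a peak within 1000 bp of the start, with open circles where under 80% of genes had a window. The NF-Y line stays between 22.5% and 33.3% up to 6 lists and reaches 55.6% at 8.

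Peaks at the member genes were centred just upstream of the start. The median midpoint of the 1429 regions was 81.5 bp upstream (-81.5 bp, quartiles -158 and -10.5), and 78.0% of midpoints were upstream. The region covered the start itself in 1027 members (71.9%), lay wholly upstream in 322 and wholly downstream in 80. Coverage by peaks was highest between -70 and -105 bp in each of the 8 libraries. At that position 95.2% of the 1400 genes were covered in the Omni-ATAC library from 50000 cells, 87% in the low-input library from 20000 cells of experiment 2, and 27.3% in the Omni-ATAC library from 5000 cells. At 500 bp from the start, coverage was higher upstream than downstream in 7 libraries, from 1.36% against 0.929% (Omni-ATAC, 5000 cells) to 11.7% against 7.57% (20000 cells, experiment 2). In the Omni-ATAC library from 50000 cells it was 19% upstream and 20.7% downstream. The rule limited the distance to 1000 bp on either side and did not set the position within it.

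**Figure D2:**
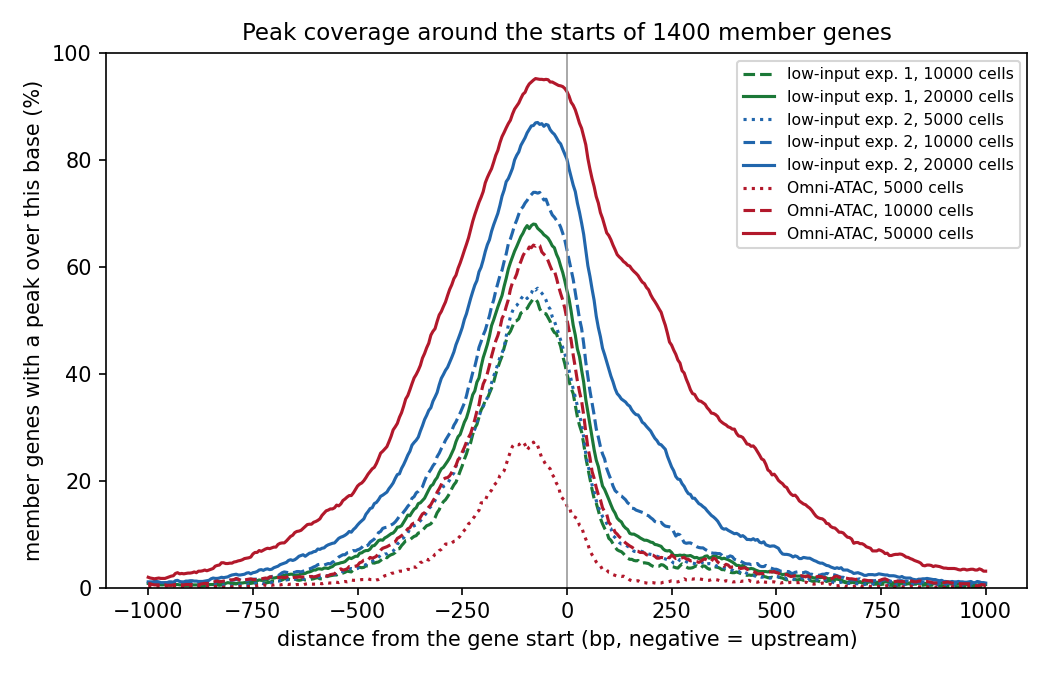
Share of the 1400 member genes (%) with a peak over each position from 1000 bp upstream to 1000 bp downstream of the gene start, in steps of 5 bp, 1 line per ATAC library (colour by series, line type by cell number). All 8 lines have their highest point between -70 and -105 bp, and the Omni-ATAC line from 5000 cells is lowest there, at 27.3%.

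Peak widths at the members differed between libraries. The median member region was 304 bp wide (quartiles 210 and 437), and the median of all other unified regions was 153 bp. Since a wide interval overlaps more lists, the rule itself partly sets that difference. In experiment 1 the median of the widest peak per member was 153 bp with 10000 cells and 217 bp with 20000. In experiment 2 it was 165 bp with 5000 cells, 254 bp with 10000 and 391 bp with 20000. With Omni-ATAC it was 19 bp with 5000 cells, 191 bp with 10000 and 556 bp with 50000. Peaks of 9 bp, the narrowest in the lists, were the widest peak at 37.9% of members in the Omni-ATAC library from 5000 cells and at none in that from 50000.

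More cells went with wider peaks at the members in every pair of libraries of a series. The median width was greater with more cells in 7 of 7 pairs (p = 0.0278 by a two-sided exact permutation of libraries within the 3 series, with 72 arrangements, or 0.0417 when adjusted for 3 such tests). That p is the smallest the design allows. The medians of the other always-open classes rose in the same 7 pairs, for example from 15 to 560 bp at promoters of genes under 10 CPM and from 12 to 407 bp at distant regions with Omni-ATAC, so the trend is not particular to the members. The mean share of a member region's length covered by peaks rose in 7 of 7 pairs with the same exact p, from 51.8% to 71.4% in experiment 1, from 55.5% to 97.1% in experiment 2 and from 23.1% to 99.8% with Omni-ATAC. The median number of separate peaks per member was 1 in every library, so all pairs tied and the exact permutation test (p = 1) could show no change. The share of members with more than 1 peak was 8.61% and 8.12% in experiment 1, in order of cell number. It was 10.3%, 6.16% and 1.47% in experiment 2, and 6.37%, 9.24% and 0.14% with Omni-ATAC. The number of peaks in a whole list rose with cell number in the same pairs, from 9097 to 95457 with Omni-ATAC, and its part in the widths was not tested. Single members followed the order less often: 576 of 1429 (40.3%) widened at every step of cell number in all 3 series.

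The experiments differed as well. Summed peak width was greater in experiment 2 than in experiment 1 at 82.9% of members with 10000 cells (median ratio 1.5) and at 89.9% with 20000 cells (median ratio 1.60). With 1 library for each experiment and cell number, these shares have no test. At 5000 cells the low-input peaks were wider than the Omni-ATAC peaks at 81.5% of members. At 10000 cells they were wider at 71.6% of members in experiment 2 and at 35.1% in experiment 1. The order of members by width was only partly shared: Spearman's rho between libraries over the 1429 members ran from 0.16 to 0.66 over the 28 pairs, with a median of 0.46.

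Member peaks were wider than those at distant always-open regions and, in 7 of 8 libraries, than those at always-open promoters of genes under 10 CPM. They were compared with 1989 always-open regions over 1000 bp from any gene start, and with 951 always-open promoters of genes under 10 CPM. Against the distant regions, the members' median was greater in 8 of 8 libraries, by 57.6 bp on average (p = 0.0078 by a two-sided exact permutation of signs over libraries, with 256 arrangements, or 0.0156 when adjusted for 2 such tests). The gap ran from 7 bp with 5000 Omni-ATAC cells to 149 bp with 50000. Against promoters of genes under 10 CPM, it was greater in 7 of 8 libraries, by 13.6 bp on average (exact permutation p = 0.0234, adjusted p = 0.0234). The Omni-ATAC library from 50000 cells was the exception, at 556 bp against 560 bp. Without the Omni-ATAC list from 5000 cells, also in the rule, the mean gap was 22.4 bp. The 533 always-open regions beside starts on both strands were not tested against the members. Their medians were within 2 bp of the members' in 4 libraries, and greater in the low-input libraries from 5000 cells (177 against 165 bp) and 20000 cells of experiment 2 (407 against 391 bp) and in the Omni-ATAC libraries from 10000 (200 against 191 bp) and 50000 cells (616 against 556 bp). The 8 libraries come from 1 cell line and 5 of them from 2 experiments, so these tests measure the spread between libraries only.

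**Figure D3:**
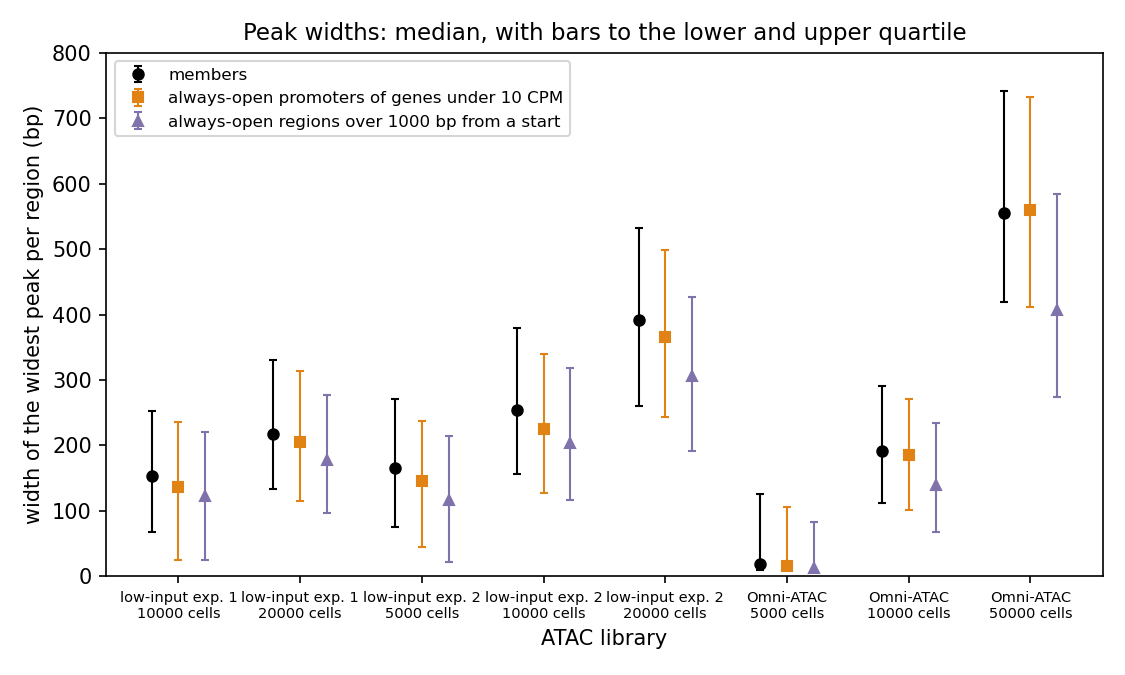
Width in bp of the widest peak per region in each ATAC library for members (circles), always-open promoters of genes under 10 CPM (squares) and always-open regions over 1000 bp from a gene start (triangles), as the median with bars to the quartiles. Member medians run from 19 to 556 bp and lie above the triangles in all 8 libraries.

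The widest and narrowest members show what these medians are made of. Sfi1, a centrosome gene whose locus has further copies in the mouse genome, was widest, with 561 and 931 bp of summed peak in experiment 1, 1009, 1009 and 833 bp in experiment 2, and 758, 570 and 1058 bp with Omni-ATAC (in order of cell number). Its region at chr11:3192799-3193807 covers the start, and its mRNA was at 12.3 ± 1.68 CPM (SD, n = 5). Kat6b, a histone acetyltransferase gene, was next with a median of 795 bp, from 409 to 1220 bp. Fignl1, a DNA repair ATPase gene (760.5 bp, from 72 to 1151 bp), and Spag7 (739.5 bp, from 384 to 987 bp) followed. The region at Fignl1 was 72 bp in 1 library and 617 bp or more in 6 others, so even wide members were not wide everywhere.

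At the other end, 4 members had a median of 9 bp. Ubb, a polyubiquitin gene at 560.2 ± 57.3 CPM (SD, n = 5), had 9 bp of peak in 5 libraries, then 69 and 133 bp with 10000 and 20000 cells in experiment 2, and 312 bp with 50000 Omni-ATAC cells. Pml, of the nuclear bodies, had 9 bp in 5 libraries and 397 bp with 50000 Omni-ATAC cells. Ankrd46 and the ETS factor gene Ets2 had 9 bp in 5 libraries and reached 513 and 928 bp with 50000 Omni-ATAC cells. None of these 4 regions covered the gene's start, and their midpoints lay between -656 and -55 bp. Ubb has a second member region over its start, with 30 to 186 bp of peak in the 8 libraries. A member of the set can thus rest on peaks of 9 bp in most libraries, and with peaks of at least 50 bp only there would be 505 members. In 266 members the 8 lists overlapped the region without a single base in common, and in the other 1163 they shared at least 1 base. Over all 1429 members the median shared stretch was 9 bp.

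No relation between peak width and mRNA level was seen among the members. Over the 1429 members, Spearman's rho between mean CPM and summed peak width was -0.01 for the median over libraries, and between -0.06 and 0.01 in single libraries. The median mRNA level was 38.9 CPM in the narrowest 358 members (up to 142.5 bp), 38.8 and 38.3 CPM in the middle groups of 357, and 39.1 CPM in the widest 357 (from 317 bp). The share of genes with a member region was lowest just above the limit of the rule and nearly level from 20 CPM on. It was 17.3% of 1811 genes at 10 to 20 CPM, 23.2% of 2149 at 20 to 50 CPM, 24.8% at 200 to 500 CPM and 23.1% of 156 genes at 1000 CPM or more. Among genes at 1000 CPM or more, 26.9% had a peak near the start in all 8 lists and 5.13% in none.

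**Figure D4:**
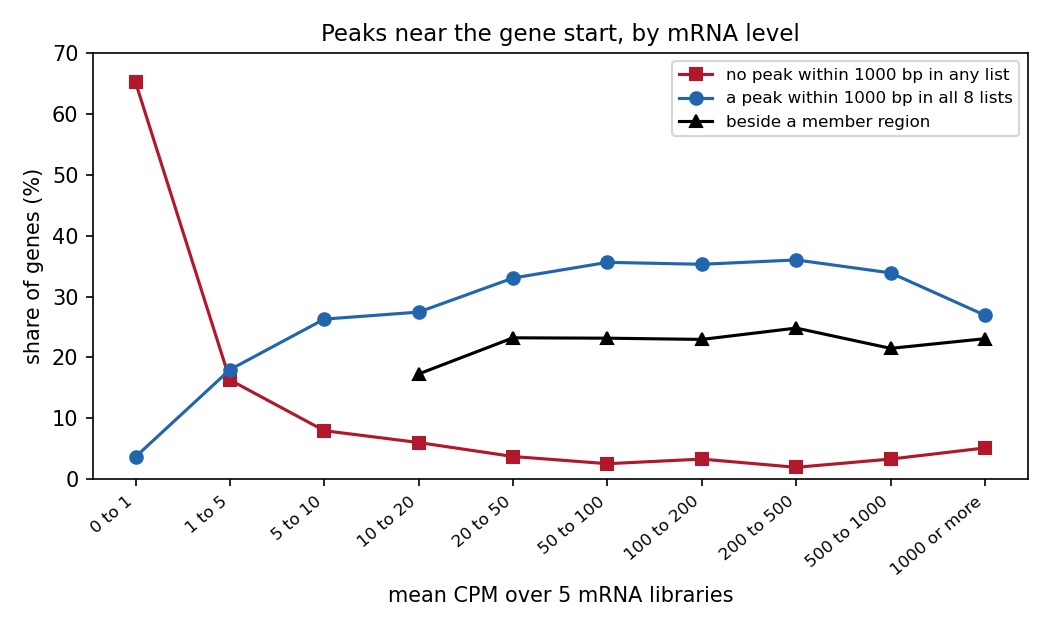
Share of genes (%) by mean mRNA level in CPM: with no peak within 1000 bp of the start in any list (red), with one in all 8 lists (blue), and beside a member region (black, from 10 CPM, since the rule sets that limit). The black line stays between 17.3% and 24.8%.

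Among the members of highest mRNA level were 4 genes of ribosomal proteins, Rpl37, Rpl13a and Rplp0 of the large subunit and Rps21 of the small one. Rpl37 had 8743 and 9065 CPM with 10000 and 20000 cells in experiment 1 and 9246, 9051 and 8282 CPM with 5000, 10000 and 20000 cells in experiment 2. It averaged 8877 ± 379 CPM (SD, n = 5), Rpl13a 4750 ± 121, Rps21 4688 ± 468 and Rplp0 4450 ± 577. The experiments overlapped at each of the 4 genes. Ribosomal protein genes have many processed copies in the genome, and how reads matching several places were counted is not given in the sources used here. The summed peaks at Rpl37 (chr15:5116239-5116650) were 268 and 341 bp in experiment 1, 338, 391 and 425 bp in experiment 2, and 11, 339 and 773 bp with Omni-ATAC. At Rpl13a the Omni-ATAC library from 5000 cells had 9 bp, and at least 52 bp was found at all 4 genes in the other 7 libraries.

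Genes of the same complex were mostly split between members and others. Of 81 expressed genes of cytosolic ribosomal proteins, 8 (9.88%) were members, against 21.6% of all expressed genes. The shares were 7 of 77 (9.09%) for mitochondrial ribosomal proteins and 4 of 35 (11.4%) for the proteasome. Among proteasome genes the most abundant member was Psmb3 (990.3 ± 226 CPM, SD, n = 5), and Psma7 (750.3 ± 46.0 CPM) had a peak near its start in 6 lists. Among mitochondrial ones Mrpl17 (437.2 ± 18.2 CPM) was a member, while Mrpl42 (544.4 ± 29.3 CPM) had a peak in 4 lists. Rps12 had more mRNA than any member (12950 ± 934 CPM, SD, n = 5) and a peak near its start in only 3 lists. Without the Omni-ATAC list from 5000 cells the counts were 16 of 81, 14 of 77 and, for the proteasome, 9 of 35 (25.7%), against 2109 of 6485 expressed genes (32.5%). A further 8 mitochondrial ribosomal genes lay beside always-open regions with starts on both strands, which makes 19.5% of that list with either kind, against 30.1% of all expressed genes. The CCT chaperonin, a ring of 8 subunits that folds actin and tubulin, had 0 members among 8 genes, of which 4 had always-open regions beside starts on both strands.

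The shares of 3 short lists were highest. Replication licensing, the loading of the MCM helicase at origins, had 8 of 20 genes (40%), led by Mcm5 at 751.5 ± 132 CPM (SD, n = 5). Mcm6 was no member: each list had a peak within 1000 bp of its start, but not all within 1 region. Heat shock proteins had 5 of 12 (41.7%), led by the constitutive chaperone Hspa8 at 1473 ± 275 CPM, while Hsp90ab1 at 5948 ± 532 CPM was outside. Glycolysis had 5 of 14 (35.7%), led by the pyruvate kinase gene Pkm at 2128 ± 242 CPM, while Ldha, lactate dehydrogenase, with 3708 ± 401 CPM had a peak near its start in 3 lists. With peaks of at least 50 bp only, the members were 3 of 20 for licensing, 1 of 12 for heat shock and 1 of 14 for glycolysis, against 505 of 6485. Splicing factors had 14 of 55 (25.5%), led by Snrpe of the Sm ring, and a further 11 beside always-open regions with starts on both strands. Close to or below the 21.6% of all expressed genes were initiation factors with 9 of 43 (20.9%), complex I of the respiratory chain with 9 of 46 (19.6%), RNA polymerase II with 3 of 13 (23.1%) and Mediator with 4 of 27 (14.8%). In complex I the member Ndufa6 had 1065 ± 89.3 CPM, and the non-member Ndufa7 had 1802 ± 227 CPM with a peak in 3 lists. For RNA polymerase II these were Polr2j, whose promoter is printed, and Polr2e at 950.7 ± 219 CPM with a peak in 4 lists. Lists this small move by several points with a single gene, and no test was made on them.

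Pluripotency factors had 4 members among 19 expressed genes (21.1%): Klf2, Klf5, Tbx3 and Zfp42. Klf2, a Krüppel-like factor of the naive state, had 190 and 190 bp of peak in experiment 1, 280, 280 and 503 bp in experiment 2, and 14, 9 and 282 bp with Omni-ATAC over its region at chr8:72318798-72319077. Zfp42, which encodes the marker protein REX1 (chr8:43306920-43307230), had 120 and 274 bp, then 269, 274 and 327 bp, and with Omni-ATAC 9, 218 and 327 bp. Klf5 (chr14:99298403-99298737) had at least 111 bp in each of the 8 libraries and at most 382 bp. Tbx3, a T-box factor gene (chr5:119670652-119671056), had 193 to 451 bp. The 4 differ in how evenly they were found: the Omni-ATAC library from 5000 cells had 111 and 193 bp at Klf5 and Tbx3 but 14 and 9 bp at Klf2 and Zfp42. Dppa5a, the listed gene with most mRNA (1573 ± 87.2 CPM, SD, n = 5), had a peak near its start in 5 lists.

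The mRNA of member genes was then compared between the experiments, which were run on different days, over the 2 libraries from 10000 and the 2 from 20000 cells. Of 1400 member genes, 221 (15.8%) had an adjusted p under 0.05 in edgeR's quasi-likelihood test, 135 higher and 86 lower in experiment 2. The background was 12.5% of all 12523 genes tested and 16.8% of the 6485 genes at 10 CPM or more (8.67% higher and 8.11% lower), so the members' share is near that of other expressed genes. The median log2 fold change was 0.01 in the members and 0.01 in all genes at 10 CPM or more. The experiment, its day and the state of the cells cannot be told apart. The number of members called was lower when any single library was left out, and in most of these fits so was that of all genes. Such fits leave 1 library for 1 of the experiments. Without the experiment 2 library from 20000 cells, more of the called members were lower than higher.

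Among the members that rose in experiment 2, the largest change was at Cpsf4l, a relative of a polyadenylation factor gene. It had 5.54 and 5.49 CPM in experiment 1 and 19.9 and 26.2 CPM in experiment 2, a log2 fold change of 2.07 ± 0.24 (SE; edgeR adjusted p = 1.14e-06). Its mean of 15.8 CPM passed the limit of 10 CPM only through experiment 2. The rule thus took Cpsf4l in because of the libraries where it is high, and its rise is no independent result. Fbxo15, an F-box gene known as a target of OCT4 and SOX2, had 24.1 and 22.5 against 91.5 and 75.8 CPM (1.84 ± 0.16, edgeR adjusted p = 1.36e-08). Ifitm1, an interferon-induced membrane protein gene with close paralogs, had 432.5 and 425.7 against 1360 and 1365 CPM (1.67 ± 0.11, edgeR adjusted p = 2.00e-10). Its library from 5000 cells in experiment 2, outside the fit, had 1522 CPM. Tubb2b, a β-tubulin gene, rose by 1.44 ± 0.15 and Cox20, an assembly factor gene of cytochrome oxidase, by 1.41 ± 0.17 on the log2 scale.

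Among the members that fell most were Carhsp1, which encodes a cold-shock domain protein, 1700007K13Rik, Dennd3, an activator gene of Rab proteins, and Ccng1. Carhsp1 had 74.96 and 71.53 CPM in experiment 1 and 19.2 and 24.4 CPM in experiment 2, a log2 fold change of -1.74 ± 0.16 (SE; edgeR adjusted p = 3.96e-08). Ccng1, the cyclin G1 gene and a known target of p53, had 96.1 and 96.9 against 42.5 and 34.9 CPM (-1.32 ± 0.15, edgeR adjusted p = 7.80e-07). The log2 fold changes were -1.58 ± 0.20 for 1700007K13Rik and -1.54 ± 0.18 for Dennd3.

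Of the pluripotency members, Zfp42 and Klf2 rose in experiment 2. Zfp42 had 343.8 and 320.3 CPM in experiment 1 and 430.0 and 432.4 CPM in experiment 2, a log2 fold change of 0.38 ± 0.11 (SE; edgeR adjusted p = 0.0282). Klf2 had 405.3 and 401.5 against 476.5 and 543.9 CPM (0.34 ± 0.11, edgeR adjusted p = 0.0497). Klf5, with 106.1 and 95.8 against 70.9 and 104.2 CPM, and Tbx3, with 24.8 and 26.2 against 14.2 and 21.1 CPM, did not pass (edgeR adjusted p = 0.43 and 0.0881). Both genes that rose lie on chromosome 8.

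Chromosome 8 held a large part of the rises. Of 94 member genes there, 53 were called and all 53 were higher in experiment 2, with a median log2 fold change of 0.50. Off chromosome 8, 168 of 1306 members were called (12.9%), 82 higher and 86 lower. Over all expressed genes, chromosome 8 included, the share called was 16.8%. Members on chromosome 8 took 5.85% and 5.76% of the members' summed CPM in experiment 1 and 8.05%, 7.92% and 8.25% in experiment 2. Expressed genes on chromosome 8 as a whole did likewise, with 185 of 409 called higher and 5 lower (median 0.46). On chromosome 14, 9 of 29 members were called and all were higher (median 0.40), and on chromosome 15, 2 of 68 were higher and 12 lower (median -0.23). Of all expressed genes, 37 of 185 were called higher and 6 lower on chromosome 14 (median 0.20), and 7 of 310 higher and 79 lower on chromosome 15 (median -0.25). Peak widths, from the ATAC libraries of the same experiments, differed by chromosome as well, in an order that only partly matched. With 10000 cells the median ratio of summed width, experiment 2 over experiment 1, was 1.91 at the 97 members on chromosome 8, 1.70 at the 30 on chromosome 14 and 1.17 at the 69 on chromosome 15, against 1.5 over all members. With 20000 cells the ratios were 1.70, 1.63 and 1.21, against 1.60. Chromosome 15 had the lowest ratio of the autosomes and X at both cell numbers. Chromosome X had 1.95 with 10000 cells and 1.49 with 20000, at 23 members with a median mRNA change of 0.21. Chromosome 18, with a median mRNA change of 0.04, had ratios of 1.84 and 1.99, above those over all members at both cell numbers. Chromosome 16 (0.07) had 1.52 with 10000 cells and 1.97 with 20000, and chromosome 17 (-0.06) had 1.26 and 1.53. The number of copies of these chromosomes was not measured, and its part was not tested.

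**Figure D5:**
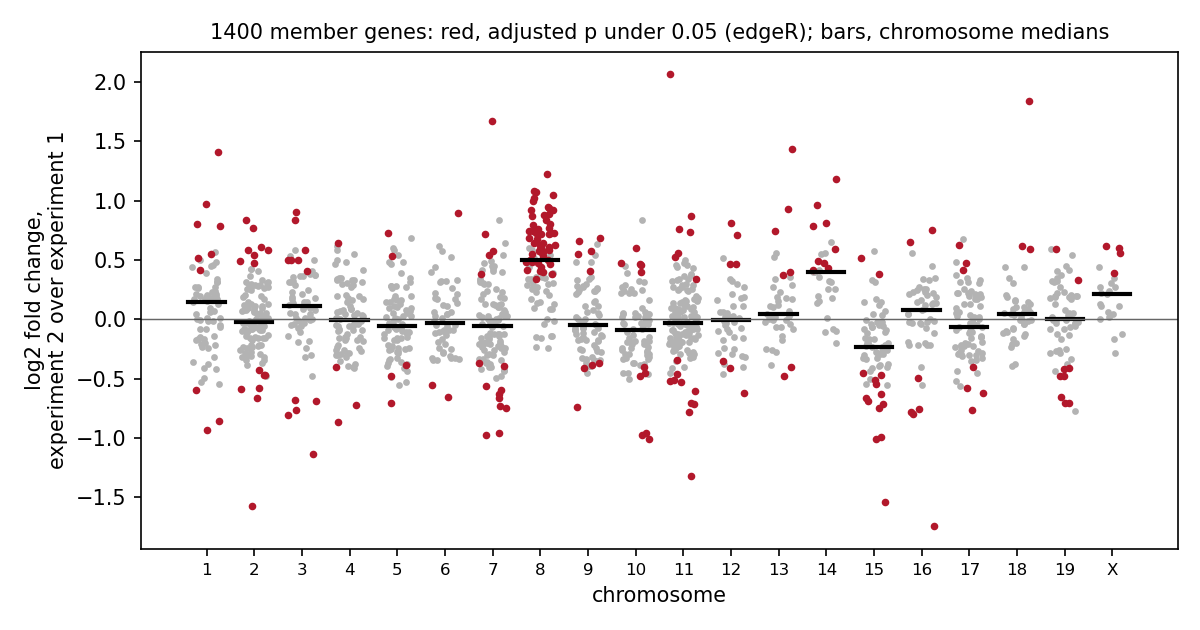
The log2 fold change in mRNA, experiment 2 over experiment 1, of the 1400 member genes by chromosome (points, red where edgeR's adjusted p is under 0.05), with the median of each chromosome as a bar. The bars of chromosomes 8 and 14 lie at 0.50 and 0.40, and that of chromosome 15 at -0.23.

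Between 20000 and 10000 cells no member gene was called. With edgeR's quasi-likelihood test 0 of 1400 had an adjusted p under 0.05 (background 0% of 12523 genes tested), 6 had an unadjusted p under 0.05, and DESeq2 called 0 as well. With the experiment as a replicate block, edgeR called 1 member of 1400 (background 0.0319%), Rwdd1, the RWD domain gene. Rwdd1 had 325.0 and 177.4 CPM with 10000 and 20000 cells in experiment 1 and 242.4 and 172.3 CPM in experiment 2, a log2 fold change of -0.70 ± 0.13 (SE; edgeR adjusted p = 0.00279). It was at 261.6 CPM with 5000 cells. The library from 5000 cells has no replicate, so it was set beside the mean of the other 2 libraries of experiment 2 on the log2(CPM + 1) scale. Of 1400 member genes, 0 were at least 2-fold higher and 4 at least 2-fold lower, against 0.278% of all genes at 10 CPM or more. The 4 were Cipc, a clock repressor gene (3.76 against 10.7 CPM), Dusp6, a phosphatase gene acting on ERK (7.64 against 16.6), Ing3 (7.99 against 17.2) and Rnf20 (6.14 against 13.5).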

How the data were processed

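Groups come from the sample titles, and replicate numbers are the experiment numbers. Each experiment had its own day per the series' design text, which pairs its libraries. Over 1400 member genes, the difference between experiments at 10000 cells correlated with that at 20000 cells with r = 0.61.

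The authors deposited raw counts per gene for 5 mRNA libraries, and ATAC peaks as interval lists, 1 per library and 1 unified. The submitters' processing notes name mm10, cutadapt, Bowtie2 2.1.0, SAMtools 1.3.1, Picard, bedtools 2.24.0, MACS2 2.1.1, STAR 2.5 and featureCounts of Subread 1.5.0-p1. Thresholds, the use of strand and the making of the unified list are not given in the sources used here. Overlapping genes and genes with near-identical copies are uncertain. Beyond the 2 experiments, libraries are not stated to be separate cultures, so p-values measure the spread between them, which may be technical.

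An overlap was at least 1 bp. The start of a gene was the 5′ end of its coordinates in the count table. CPM were computed from the deposited counts. Differential expression used the quasi-likelihood test of edgeR 4.0.16 in R 4.3.3, with TMM scaling and its filterByExpr filter, over all genes, with Benjamini-Hochberg adjustment at 0.05, and DESeq2 1.42.0 as an alternative. The steps were tested on simulated counts. Peak widths were compared by exact permutation over libraries. Promoter windows came from RefSeq (GRCm38.p6) by gene ID, strand and the nearest start within 1000 bp. Genes on chromosome 18 were left out of the motif counts. Python 3.11.15 with scipy 1.17.1 was used.

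Genes were named by rule: the 6 members of highest CPM, the 4 widest and 4 narrowest, the 5 largest rises and falls per mRNA comparison with CPM ranges that do not overlap, all members of the pluripotency and lineage lists, from the top members and non-members of the other lists, and the neighbours of the thresholds. Some genes that the rule takes are not reported here. Rwdd1, the genes apart at 5000 cells and the TATA genes fall outside this rule and were chosen with their values in view. The members and the 15 gene lists were chosen with earlier results of these data known. Alternatives were other scalings, filters, thresholds, distances and overlaps, a block, and leaving out single libraries.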

Additional observations from a re-analysis of the deposited data

Results flagged for a closer look

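The Omni-ATAC group from 50000 cells differed in direction from the other 5 groups by protocol and cell number in one comparison of peak width. The members' median was 556 bp there against 560 bp at always-open promoters of genes under 10 CPM, a difference of -4 bp, while it was greater in the other 7 libraries. This difference between groups was not tested.

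For 4 of the 8 ribosomal protein and pluripotency genes described among the members, the gap between the experiments had opposite directions at the 2 cell numbers, each from 1 library a side and not tested. In experiment 2 less experiment 1, Rplp0 differed by -1382 CPM with 10000 cells and by 400.9 CPM with 20000, and Klf5 by -35.2 and 8.41 CPM. Rpl37 differed by 308.4 and -782.2 CPM and Rps21 by 761.9 and -1033 CPM in the same order.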

How the results depend on the processing

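The number of members depended on the narrow peaks and on 1 list: it was 505 with peaks of at least 50 bp only and 2173 without the Omni-ATAC list from 5000 cells, and stayed between 1106 and 1742 with other distances, overlaps and CPM limits. With peaks of at least 50 bp only, 66.1% of 422 member windows held CCAAT. In 4 other settings, all added after the data were seen, the share ran from 54.1% to 58.9%.

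The trend of peak width and of covered length with cell number kept its direction in every pair. The number of pairs was 5 to 6 when a low-input library was left out, and 5 without the Omni-ATAC list from 5000 cells. The smallest p such designs allow is 0.0556 or 0.0833, so these values say nothing on stability. Both width comparisons between classes of regions kept their direction and an exact p under 0.05 in 8 alternatives each, among them leaving out each low-input library from 10000 or 20000 cells.

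In the comparison of experiments, 18 members (1.29%) were called when a log2 fold change of at least 1 was also asked for, against 170 of 6485 expressed genes (2.62%). Leaving out 1 library gave 116 to 204 calls. Other scalings, filters, DESeq2 and cell number as a block gave 198 to 283, and members off chromosome 8 numbered 168. In the comparison of cell numbers the experiment as a replicate block called 1 member instead of 0. It pairs libraries by day, and over all 12523 genes tested it called 4 instead of 0. The ATAC read depth is not known, so differences of width between libraries cannot be weighed against it.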

Other observations

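Chromosomes differed in the share of their expressed genes that were members. It was 27.8% of 151 genes on chromosome 18, 15.7% of 185 on chromosome 14 and 13.4% of 172 on chromosome X, against 21.6% over all chromosomes.

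Each of 29 genes had 2 member regions, and none had more. At Cic, a transcriptional repressor gene, the regions were 169 and 501 bp wide, with midpoints at -145 and 406 bp from the start. At Map2k2, the MEK2 kinase gene, they were 125 and 565 bp wide, with midpoints at -43 and 519 bp. In the libraries with the widest peaks, 1 peak covered both regions: it was 947 bp wide at Cic and 1172 bp at Map2k2 with 50000 Omni-ATAC cells.

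Member genes varied between the 5 mRNA libraries about as much as other expressed genes. The median coefficient of variation of CPM was 14.5% in 1400 member genes and 15.1% in 5085 others.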
